A study of Mus musculus with 32 samples.

Results

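Interferon response genes were followed across mouse ovarian and oviductal tumours and the normal tissues around them. The list holds 38 gene symbols chosen by name, and 37 of them had a row among the 55450 genes of the tables. Mb21d1 had no row under that name. RefSeq gives it as an older name of Cgas, the cytosolic DNA sensor, so Cgas is described at the end and is not counted among the 37.

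Interferons are secreted proteins that warn cells of viral nucleic acid. Type I and type III interferons act through receptor-bound kinases on a complex that includes Stat2 and Irf9 and binds the interferon-stimulated response element (ISRE). Interferon gamma, made mainly by T and NK cells, acts through the gamma-activated sequence (GAS) and induces Irf1 and the guanylate-binding and immunity-related GTPases. In tumours the same genes are known to be switched on by cytosolic DNA sensed through cGAS and STING (the product of Tmem173), by RNA sensed through Ifih1 (MDA5) and Ddx58 (RIG-I), and by interferon from infiltrating immune cells. The list covers these sensors, the transcription factors Irf1, Irf7, Irf9 and Stat2, and the effectors they induce.

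The stretches upstream of the start sites of 8 members are printed because they carry the sequence elements that place the members in the pathway, and because they show how alike Ifit3 and Ifit3b are. Capitals mark the ISRE core, which is GAAA, any 2 bases and GAAA again (TTTC, any 2 bases and TTTC when read on the opposite strand), and the GAS motif TTCNNNGAA, which reads the same on both strands. Overlapping copies run together in the capitals. Sequences are from RefSeq (GRCm38.p6), written 5′ to 3′ on the strand of the gene. The windows are chr4:156200860-156200929 (minus strand) for Isg15, chr19:34640759-34640828 (plus) for Ifit1, chr19:34583358-34583431 (plus) for Ifit3, chr19:34607754-34607827 (plus) for Ifit3b, chr5:120907526-120907638 (minus) for Oas1a, chr3:142530215-142530307 (plus) for Gbp7, chr11:58199477-58199546 (plus) for Igtp and chr11:53769878-53769947 (plus) for Irf1.
Isg15: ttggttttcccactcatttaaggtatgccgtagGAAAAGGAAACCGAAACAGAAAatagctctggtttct
Ifit1: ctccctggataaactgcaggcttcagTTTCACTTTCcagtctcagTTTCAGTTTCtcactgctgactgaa
Ifit3: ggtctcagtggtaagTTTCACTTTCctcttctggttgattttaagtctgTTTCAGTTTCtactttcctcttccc
Ifit3b: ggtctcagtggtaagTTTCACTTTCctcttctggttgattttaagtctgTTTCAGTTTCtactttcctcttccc
Oas1a: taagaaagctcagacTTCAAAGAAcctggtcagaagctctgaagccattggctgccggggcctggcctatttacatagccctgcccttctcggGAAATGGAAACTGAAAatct
Gbp7: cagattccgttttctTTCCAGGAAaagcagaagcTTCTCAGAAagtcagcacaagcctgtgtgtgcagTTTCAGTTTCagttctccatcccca
Igtp: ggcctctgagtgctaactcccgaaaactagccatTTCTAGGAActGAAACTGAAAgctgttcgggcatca
Irf1: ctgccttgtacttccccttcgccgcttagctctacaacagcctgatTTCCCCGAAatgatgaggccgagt

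The ISRE core lay within the 300 promoter bases of 17 of the 27 members with a RefSeq promoter entry (63%), counted on both strands, against 1079 of 27025 genes (3.99%). GAS lay in 8 of 27 members (29.6%) against 2582 genes (9.55%). Both stood in Bst2, Gbp7, Igtp, Irgm2 and Oas1a, whereas Irf1, Ifi35 and Ifit2 held GAS alone. A match is a description of letters, not a bound site. The printed windows of Ifit3 and Ifit3b are identical over 74 bases. Both genes lie side by side on chromosome 19, so the division of reads between these near-identical copies by the counting model is uncertain. The same holds for Oas1a and its paralogs on chromosome 5, for Gbp2, Gbp3 and Gbp7 on chromosome 3, and for Igtp and Irgm2, whose annotated spans overlap on the plus strand of chromosome 11. Mx2 is annotated as a polymorphic pseudogene.

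Bulk RNA of 32 libraries from female mice was sequenced, in 10 groups. A GEMM tumour arose in the genetically engineered mouse itself, and an allograft is a tumour of the same model grown after transfer. The 4 models carry floxed Brca1 (Brca1 fl/fl) and the K18GT121 Tg/+ transgene, which inhibits Rb, and differ in the cell targeted. OSE-BPR (FVB strain, 3 GEMM tumours and 5 allografts) started from the ovarian surface epithelium, with adeno-Cre given under the ovarian bursa to mice that also carried Trp53 fl/fl. Ad-BPR (2 GEMM, 4 allografts) had the same alleles and received adeno-Cre in the oviduct. Pax8-BPR (4 GEMM, 2 allografts) added Pax8-CreERT2 Tg/+, which directs Cre to oviductal secretory cells, and tamoxifen. Ovgp1-BPR (3 GEMM, 3 allografts) used tamoxifen with an Ovgp1-driven inducible Cre, also aimed at secretory cells. For its Trp53 allele the sample labels give Trp53 KozR172H ki/+, whereas the series text names the R172H mutation but writes Trp53 fl/fl in the genotype. The last 3 models and the wild-type controls (3 ovaries and 3 oviducts, labelled with the same 3 animal numbers) are C57Bl/6. Origin and strain therefore cannot be told apart between OSE-BPR and the other models. In OSE-BPR against the ovary, the change from normal tissue to tumour cannot be told apart from strain. Tumours were taken at endpoint, months after induction, and ages are not in the labels. The source tumours and hosts of the allografts are not in the labels either, so several allografts may come from 1 tumour, and the p-values measure only the spread between these samples.

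Libraries held 13.99 M to 20.51 M counts (median 17.43 M). Gene totals of Trp53 were 8.4 to 43 CPM (library-scaled counts per 1e6) in OSE-BPR, Ad-BPR and Pax8-BPR tumours, 101 to 157 in Ovgp1-BPR tumours and 83.4 to 120 in normal tissue. Brca1 totals, 17.1 to 70.6 CPM in tumours and 2.03 to 22.5 in normal tissue, do not resolve the floxed exons. Summed epithelial markers (6 genes) reached 698 to 10890 CPM in tumours against 75.9 to 125 in the ovary. Summed ovarian markers (5 genes) were 1241, 101 and 746 CPM in oviduct replicates 1, 2 and 3, against 9282 to 10345 in the ovary, so oviduct replicates 1 and 3 held ovarian RNA.

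Per unit of transcript length, the highest members in tumours were Oasl2, a member of the oligoadenylate synthetase family, and Bst2 (tetherin, which holds budding virus at the cell surface), with median levels of 229 and 163 TPM (a share of all transcripts, scaled for gene length) over the 26 tumours. Gbp2, Irf1, Tmem173 and Isg15 followed at 82.7, 73.9, 72.1 and 66.1 TPM. At the other end were Mx2, Mx1 and Oas3 at 4.5, 2.78 and 2.35 TPM. Each member varied widely over the 26 tumours. Isg15, the ubiquitin-like modifier, ran from 11.9 to 476 TPM, and Zbp1, a sensor of Z-form nucleic acid, from 0.1 to 252 TPM. In the 6 normal libraries Bst2 had the highest median, 483 TPM, and only Bst2 among the top 6 of the tumour order was higher in normal tissue than in tumours.

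Each library was then placed by the median, over the 37 members, of log2(CPM + 0.5) minus the member's own median over all 32 libraries. Pax8-BPR GEMM libraries stood at 0.89, 1.63, 0.86 and 1.80. The Ad-BPR allografts stood at 0.13, 0.45, 1.64 and 0.01, with replicate 3 alone far up. OSE-BPR GEMM tumours stood at -0.39, -0.44 and -0.55, and OSE-BPR allografts between -1.61 and -0.21. No OSE-BPR library reached 0, and all Ad-BPR and Pax8-BPR libraries lay above it. The ovaries stood at -1.42 to -1.26 and the oviducts at -0.71 to -0.22. Ovgp1-BPR GEMM tumours spread from 0.77 through -0.22 to -1.31, while the 3 Ovgp1-BPR allografts stood at 0.75, 0.31 and 0.97. Pax8-BPR GEMM replicate 2 held the highest tumour level of 13 members, Ad-BPR allograft replicate 3 of 11 and Pax8-BPR GEMM replicate 4 of 7. OSE-BPR allograft replicate 5 held the lowest of 16.

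**Figure D1:**
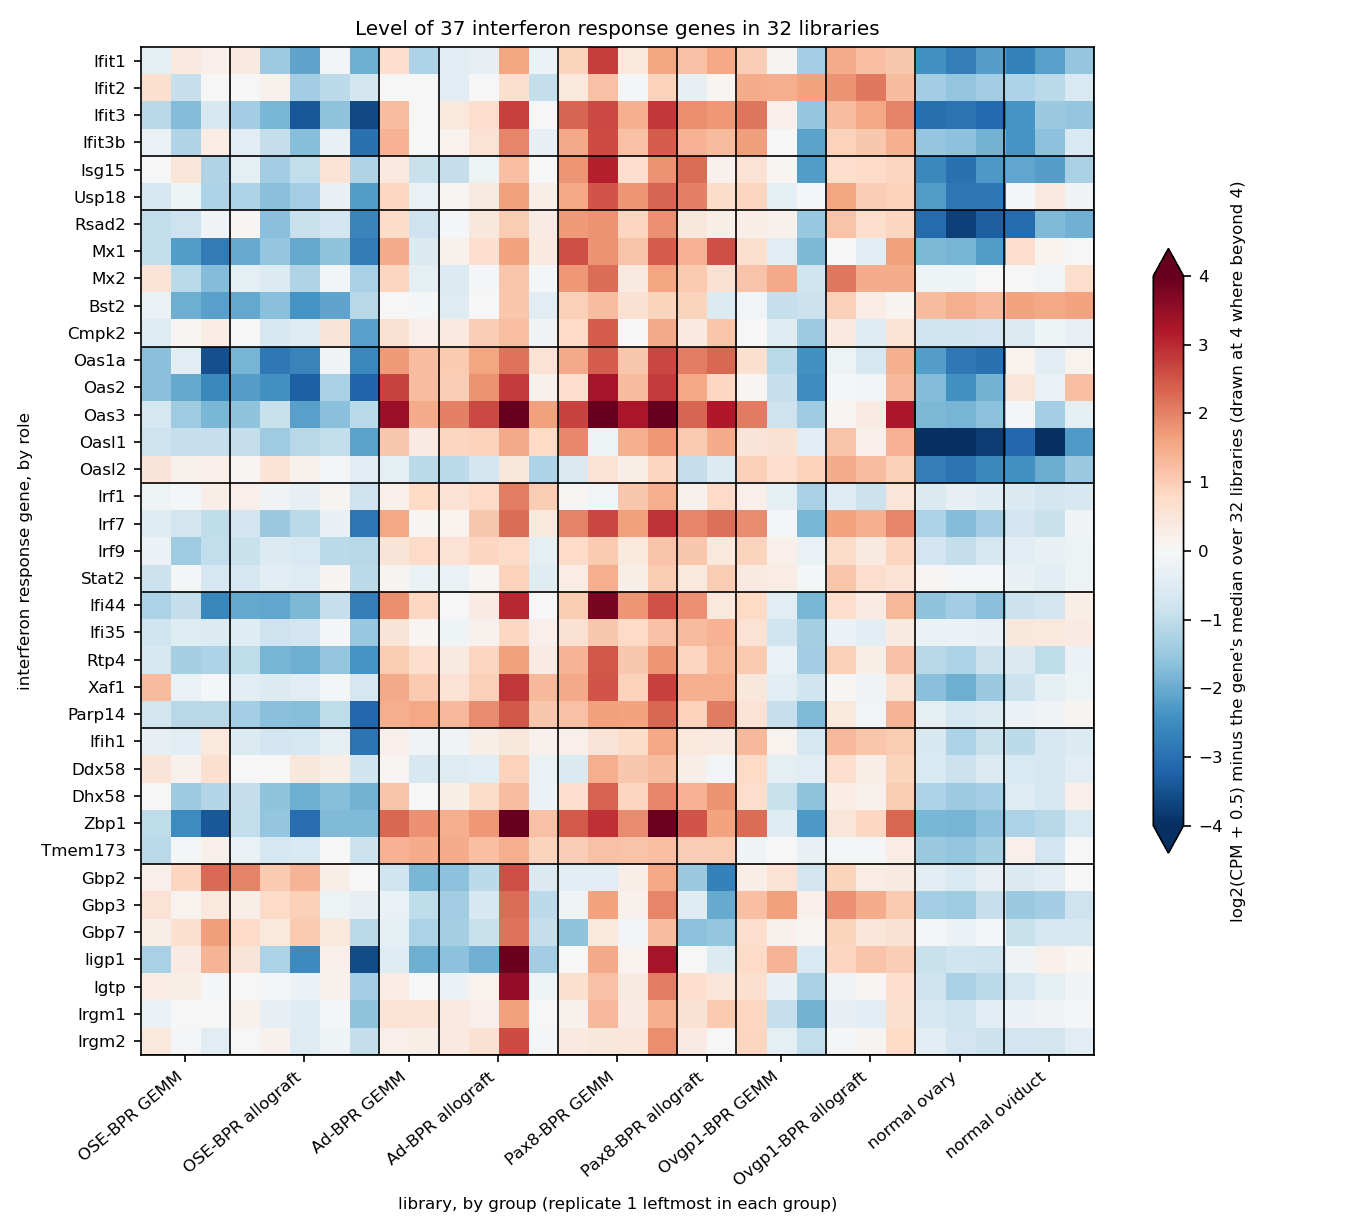
Heat map of 37 interferon response genes (rows, grouped by role with lines between roles) in 32 libraries (columns, by group); the colour is log2(CPM + 0.5) minus the gene's median over the 32 libraries, and colours stop at 4 in both directions. The OSE-BPR columns are mostly blue except in the Oasl2, Ddx58, Gbp2, Gbp3 and Gbp7 rows, the Pax8-BPR columns mostly red, and Bst2 is the row that is red in all 6 normal libraries.

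In normal tissue, most members were higher in the oviduct than in the ovary of the same animals. Of 36 members tested, 25 passed (24 higher in the oviduct, 1 lower), where 53% of all 17334 genes passed (28.5% higher, 24.5% lower). The median log2 difference was 0.69 for the members against 0.02 for all genes. Among called members averaging at least 5 CPM in the higher tissue, the deISGylase Usp18 and the OAS genes Oas1a and Oas2 differed most. OAS enzymes make the second messenger that activates RNase L. Usp18 was 10.6, 15 and 10.3 CPM in the oviducts and 2.01, 1.09 and 1.1 in the ovaries. Oas1a was 12.7, 8.42 and 12.7 CPM against 2.08, 1.14 and 0.986. Oas2 was 14.7, 8.63 and 24.8 CPM against 2.77, 1.54 and 2.46. The groups did not overlap, as the rule that named these genes required. The log2 differences were 3.19 ± 0.30 (SE; edgeR adjusted p = 0.00018) for Usp18, 3.11 ± 0.34 (edgeR adjusted p = 0.00034) for Oas1a and 2.92 ± 0.44 (edgeR adjusted p = 0.0015) for Oas2.

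STING showed the same order. Tmem173 was 47.7, 24.1 and 41 CPM in the oviducts and 14.4, 13.4 and 16.2 in the ovaries, a log2 difference of 1.44 ± 0.25 (edgeR adjusted p = 0.0028). The lowest oviduct value belonged to replicate 2, the library with the least ovarian marker RNA. Gbp7 was the member that was lower in the oviduct, at 14.2, 16.2 and 17.1 CPM against 25.8, 22.4 and 25.1 (log2 difference -0.54 ± 0.11, edgeR adjusted p = 0.0062). Irf7, the main factor of the type I amplification loop, was higher (1.03 ± 0.25, edgeR adjusted p = 0.011), as was the GTPase Iigp1 (1.02 ± 0.15, edgeR adjusted p = 0.0012). Isg15 was only just past the threshold (0.99 ± 0.35, edgeR adjusted p = 0.049) and did not pass without any 1 of the 3 ovaries or without oviduct replicate 1 or 3 (edgeR adjusted p up to 0.15). Ifit1 (0.53, edgeR adjusted p = 0.28), Stat2 (-0.19, edgeR adjusted p = 0.13), Irf1 (-0.12, edgeR adjusted p = 0.31), Gbp2 (0.23, edgeR adjusted p = 0.26) and Ifih1 (0.26, edgeR adjusted p = 0.33) did not pass. In a fit of all 32 libraries, which takes the wider spread of tumours, only 6 members passed, where 12.5% of all genes passed. Gbp7, Irf7, Iigp1 and Isg15 did not pass in that fit.

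Summed epithelial markers were also lower in the ovary (75.9 to 125 CPM against 1615 to 1955 in the oviduct). In bulk RNA, fewer cells of a type and less RNA per cell cannot be told apart, here and in the tumours.

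Every GEMM model was next compared with the normal tissue of its origin. The count was highest in Pax8-BPR tumours, where 26 of 37 members passed, all higher, with a median log2 fold change of 1.87 against -0.01 for all genes, where 32.2% of 20887 genes passed (15.9% higher). In OSE-BPR tumours 11 passed (10 higher, 1 lower; median 1.12 against 0.00; 23.2% of genes, 11.6% higher). In Ad-BPR tumours 13 passed (12 higher, 1 lower; median 1.02 against -0.07; 24.1% of genes, 11.7% higher). In Ovgp1-BPR tumours 9 passed (8 higher, 1 lower; median 0.69 against -0.05; 32.6% of genes, 15.3% higher), and without Ovgp1-BPR replicate 3 the count was 13 (12 higher, 1 lower; 22.1% of genes). The 3 comparisons with the oviduct share its 3 libraries.

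Oasl1, which restrains Irf7 translation in the mouse, was the member with the steadiest rise. It was 0.693, 0.914 and 1.97 CPM in the ovaries and 19.1, 17.7 and 17.8 CPM in OSE-BPR GEMM tumours. It was 3.42, 1.56 and 6.69 CPM in the oviducts, and 71.6 and 42.9 CPM in the Ad-BPR GEMM tumours. Pax8-BPR GEMM tumours were at 130, 29.5, 90.8 and 113 CPM, and those of Ovgp1-BPR at 49, 51.9 and 25.4. Tumour and normal values did not overlap in any of the 4 comparisons, a condition of its being named. The log2 fold changes were 3.91 ± 0.55 (edgeR adjusted p = 3.3e-05) in OSE-BPR, 3.87 ± 0.56 (edgeR adjusted p = 2.4e-05) in Ad-BPR, 4.54 ± 0.54 (edgeR adjusted p = 1e-06) in Pax8-BPR and 3.43 ± 0.53 (edgeR adjusted p = 3.2e-05) in Ovgp1-BPR. Oasl1 passed in each comparison whichever single library was left out.

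Oasl2 lies beside it on chromosome 5 of GRCm38 (chr5:114896936-114912234, plus strand, with Oasl1 at chr5:114923240-114937915, both protein coding). Oasl2 was 25, 22.7 and 28.9 CPM in the ovaries and 249, 197 and 203 in OSE-BPR GEMM tumours (log2 fold change 3.08 ± 0.39, edgeR adjusted p = 9.6e-06). In the oviducts it was 32.1, 43.8 and 62.1 CPM and in Ovgp1-BPR GEMM tumours 336, 283 and 329 (2.78 ± 0.38, edgeR adjusted p = 7.8e-06). Oas1a, Oas2 and Oas3 did not pass in either of these models. Oas2 was 2.95, 2.14 and 1.34 CPM in OSE-BPR GEMM tumours, overlapping the ovaries at 2.77, 1.54 and 2.46, and 11, 5.29 and 1.42 CPM in Ovgp1-BPR GEMM tumours, against 14.7, 8.63 and 24.8 in the oviducts. Oas3, near 0 in normal tissue (0.139, 0.114 and 0.219 CPM in ovary, 1.62, 0.364 and 1.25 in oviduct), was 23.9 and 5.8 CPM in Ad-BPR and 14.1, 39.1, 21 and 91.5 CPM in Pax8-BPR GEMM tumours. Its log2 fold change was 5.26 ± 1.23 (edgeR adjusted p = 0.0022) in Pax8-BPR and 3.78 ± 1.23 (edgeR adjusted p = 0.027) in Ad-BPR. In Ad-BPR it did not pass without Ad-BPR replicate 1 or any 1 of the oviducts (edgeR adjusted p up to 0.23).

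The IFIT genes bind viral RNA. All 4 passed in Pax8-BPR, 3 in OSE-BPR, 3 in Ovgp1-BPR and 2 in Ad-BPR GEMM tumours, all higher. The shares of all genes that passed were 32.2%, 23.2%, 32.6% and 24.1%. Ifit3 was 1.68, 3.53 and 3.37 CPM in the oviducts and 56.2, 70.3, 29.5 and 79.7 in Pax8-BPR GEMM tumours (log2 fold change 4.36 ± 0.86, edgeR adjusted p = 0.00046), and 26.1 and 10.7 in Ad-BPR (2.68 ± 0.87, edgeR adjusted p = 0.027, lost when any 1 of the 5 libraries was left out, 0.052 to 0.2). Ifit1 was 2.15, 1.6 and 2.57 CPM in the ovaries and 10.3, 18.2 and 15.9 in OSE-BPR GEMM tumours (2.81 ± 0.78, edgeR adjusted p = 0.011; 0.05 without ovary replicate 2). Its log2 fold changes were 3.99 ± 0.79 in Pax8-BPR (edgeR adjusted p = 0.00048), 2.28 ± 0.81 in Ad-BPR (edgeR adjusted p = 0.041) and 2.46 ± 0.76 in Ovgp1-BPR (edgeR adjusted p = 0.016). The Ad-BPR call ended without Ad-BPR replicate 1 or any 1 of the oviducts (edgeR adjusted p up to 0.5), and the Ovgp1-BPR call without Ovgp1-BPR replicate 1 or oviduct replicate 1 (up to 0.081). Ifit2 stood out in Ovgp1-BPR, at 55.2, 54.7 and 60.8 CPM against 7.93, 8.99 and 12.7 in the oviducts (2.53 ± 0.45, edgeR adjusted p = 0.00018).

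Among the other effectors, viperin (Rsad2) was 10.5, 11.7 and 19.4 CPM in OSE-BPR GEMM tumours against 2.08, 1.14 and 1.7 in the ovaries (log2 fold change 3.08 ± 0.60, edgeR adjusted p = 0.00071). Isg15 rose in Pax8-BPR, from 4.08, 3.74 and 7.41 CPM in the oviducts to 65, 166, 30.3 and 67.2 (4.01 ± 0.76, edgeR adjusted p = 0.00033), and in OSE-BPR, from 2.77, 1.94 and 3.45 CPM in the ovaries to 18.8, 26.6 and 7.93 (2.7 ± 0.75, edgeR adjusted p = 0.011; 0.053 without ovary replicate 2). It did not pass in Ad-BPR (1.78 ± 0.77, edgeR adjusted p = 0.092) or in Ovgp1-BPR (1.77 ± 0.72, edgeR adjusted p = 0.06). In Ovgp1-BPR it passed without replicate 3 (edgeR adjusted p = 0.025), whose 3.63 CPM stood against 28.3 and 20 in replicates 1 and 2.

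Bst2 went the other way. It was 163, 185 and 168 CPM in the ovaries and 56.4, 16.9 and 14.5 in OSE-BPR GEMM tumours (log2 fold change -2.56 ± 0.48, edgeR adjusted p = 0.00053). In the oviducts it was 209, 200 and 207 CPM and in Ovgp1-BPR GEMM tumours 62.3, 35.8 and 36.7 (-2.19 ± 0.47, edgeR adjusted p = 0.0012). Ad-BPR GEMM tumours, at 68.4 and 64.2 CPM, were lower as well (-1.63 ± 0.54, edgeR adjusted p = 0.029), a call that ended when any 1 of the 5 libraries was left out (edgeR adjusted p 0.054 to 0.17). Pax8-BPR GEMM tumours were at 130, 159, 104 and 126 CPM, and the difference did not pass (-0.67 ± 0.42, edgeR adjusted p = 0.23; chosen for mention after its value was seen). Bst2 was the only member among the 37 that passed downward in any of the 4 comparisons.

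**Figure D2:**
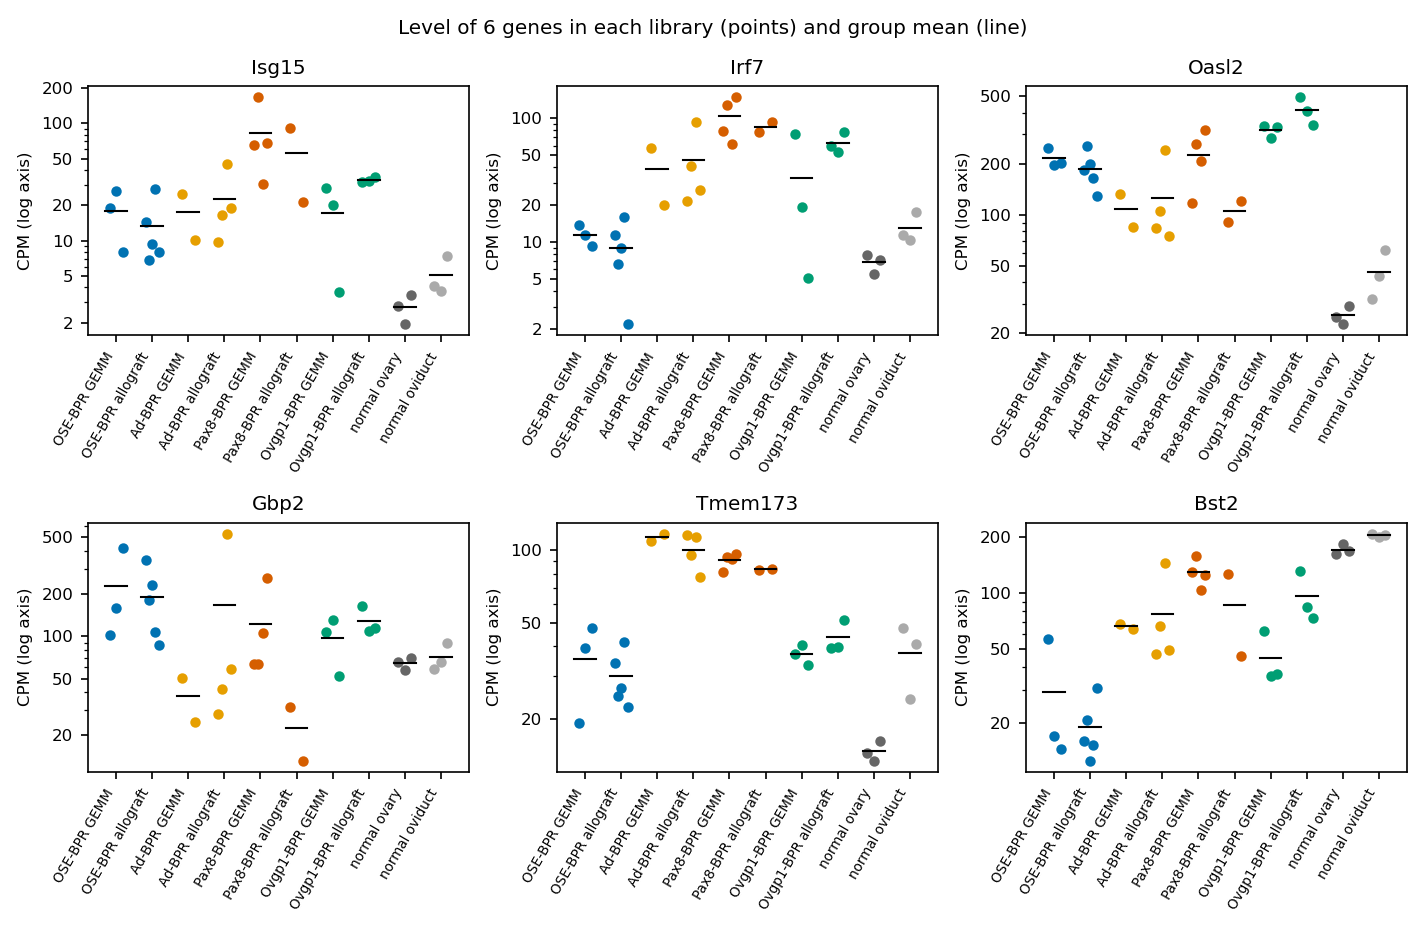
CPM on log axes of Isg15, Irf7, Oasl2, Gbp2, Tmem173 and Bst2 in every library (points, coloured by model) with the group mean (line). Oasl2 tumour points lie above all normal points, Bst2 points of OSE-BPR tumours lie at 12.5 to 56.4 CPM below all normal points, and Gbp2 of Ad-BPR allograft replicate 3 lies at 530 CPM above all other libraries.

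All 4 transcription factors passed in Pax8-BPR, where 32.2% of all genes passed. In Ad-BPR 1 of 4 passed (Irf9, against 24.1% of all genes), and 0 of 4 in OSE-BPR (23.2%) and in Ovgp1-BPR (32.6%). With 4 genes, the counts of 0 and 1 cannot be read against those shares. Whether the models differ in these counts was not tested. Irf7 was 11.3, 10.4 and 17.5 CPM in the oviducts and 78.2, 128, 61.7 and 147 in Pax8-BPR GEMM tumours (log2 fold change 2.98 ± 0.69, edgeR adjusted p = 0.0019). Stat2 (1.15 ± 0.32, edgeR adjusted p = 0.0088) and Irf1 (1.43 ± 0.41, edgeR adjusted p = 0.01) also rose there. In Ad-BPR, Irf7 (1.56, edgeR adjusted p = 0.12) and Irf1 (1.20, edgeR adjusted p = 0.062) did not pass. In Ovgp1-BPR, Irf7 was 73.7, 19 and 5.16 CPM, a 1.32 log2 difference that did not pass (edgeR adjusted p = 0.13) and passed without replicate 3 (edgeR adjusted p = 0.039). In OSE-BPR, Irf7 (0.75, edgeR adjusted p = 0.45) and Stat2 (-0.48, edgeR adjusted p = 0.33) did not pass.

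All 5 sensors and adaptors passed in Pax8-BPR, where 32.2% of all genes passed. Zbp1 was 2.52, 2.81 and 4.19 CPM in the oviducts and 39.3, 54, 26.1 and 111 in Pax8-BPR GEMM tumours (log2 fold change 4.18 ± 1.08, edgeR adjusted p = 0.0046). It was 34.6 and 25.1 CPM in Ad-BPR (3.23 ± 1.11, edgeR adjusted p = 0.036), a call lost when any 1 library was left out (edgeR adjusted p 0.071 to 0.11). Ifih1 rose in Pax8-BPR (1.62 ± 0.47, edgeR adjusted p = 0.01) and passed narrowly in Ovgp1-BPR (1.25 ± 0.48, edgeR adjusted p = 0.049), where it did not pass without Ovgp1-BPR replicate 1 or any 1 of the oviducts (edgeR adjusted p up to 0.41). Tmem173 was 19.2, 39.4 and 47.5 CPM in OSE-BPR GEMM tumours against 14.4, 13.4 and 16.2 in the ovaries (1.27 ± 0.27, edgeR adjusted p = 0.0016). Against the oviducts it was higher in Ad-BPR at 109 and 117 CPM (1.58 ± 0.29, edgeR adjusted p = 0.00043) and in Pax8-BPR at 81.5, 93.6, 92.1 and 96.3 CPM (1.27 ± 0.26, edgeR adjusted p = 0.00057). In Ovgp1-BPR, at 37.1, 40.4 and 33.4 CPM, the difference was -0.02 ± 0.27 (edgeR adjusted p = 0.96).

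Of the 7 GTPases, 2 passed in Pax8-BPR (Gbp3 and Irgm2; 32.2% of all genes passed), 1 in Ovgp1-BPR (Gbp3; 32.6%) and 0 in OSE-BPR (23.2%) and Ad-BPR (24.1%), too few genes to read against those shares. Gbp2 was 65.6, 57.6 and 70.1 CPM in the ovaries and 101, 159 and 423 in OSE-BPR GEMM tumours, all above the ovaries but widely spread (log2 difference 1.82 ± 0.81, edgeR adjusted p = 0.11; 0.037 in a fit of the 2 groups alone). In Ad-BPR GEMM tumours it was 50.7 and 24.5 CPM, below the oviducts at 58.6, 65.9 and 89.3 (-0.92 ± 0.91, edgeR adjusted p = 0.48). Iigp1 did not pass in any of the 4 comparisons (edgeR adjusted p 0.24 to 0.71).

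Summed cell type markers are set beside these results. Summed macrophage markers (8 genes) were 2124 to 3231 CPM in Pax8-BPR GEMM tumours and 1259 and 1275 in Ad-BPR, against 307 to 473 in the oviduct, and 132 to 507 in OSE-BPR GEMM tumours against 350 to 601 in the ovary. Macrophage sums in Ovgp1-BPR GEMM tumours were 968, 373 and 225 CPM. Summed T and NK cell markers (8 genes) were 7.85, 28.1, 19.8 and 43.8 CPM in Pax8-BPR GEMM tumours. They were 9.41 and 3.07 in Ad-BPR, 6.3, 0.819 and 0.963 in Ovgp1-BPR and 4.71 to 6.24 in the oviduct. In OSE-BPR GEMM tumours they were 0.871, 1.15 and 0.183, below the ovary at 4.52 to 5.34. Cd3d, Cd3g, Gzmb and Ncr1 stayed under 0.1 CPM in each OSE-BPR GEMM library. Neutrophil markers (6 genes) summed to 94.2 to 229 CPM in Pax8-BPR GEMM tumours and 1.65 to 7.51 in OSE-BPR. The part of these cells in the members' levels was not tested.

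**Figure D3:**
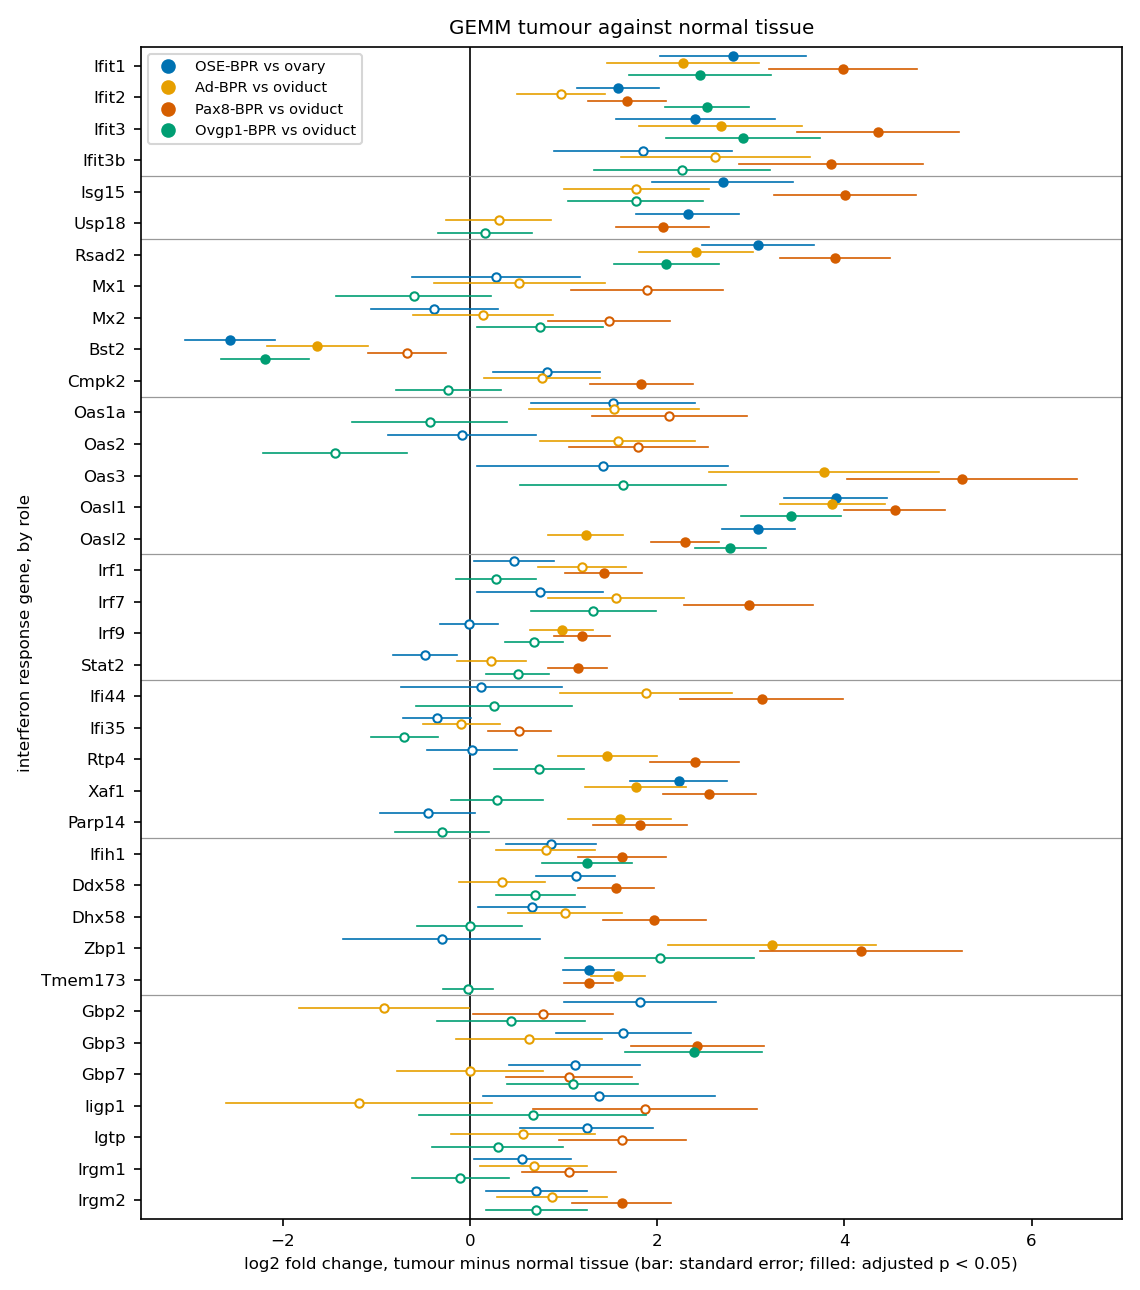
Log2 fold change (points, with bars of 1 standard error) of 37 interferon response genes in GEMM tumours of 4 models against the normal tissue of origin; filled points passed at adjusted p < 0.05. Oasl1 is filled at 3.43 to 4.54 in all 4 comparisons, and Bst2 is the only gene with filled points left of 0.

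The count for Ad-BPR, with 2 tumours, rests on every library. It fell from 13 whichever single library was left out, and leaving out either tumour left 1 Ad-BPR GEMM library. Without oviduct replicates 1, 2 and 3 the count was 3, 4 and 6 of 37. The shares of all genes that passed were then 17.8%, 17.4% and 17.5%. A fit of the 2 groups alone gave 24, where 47.2% of all genes passed. Without oviduct replicates 1 and 3, the libraries with ovarian RNA, 1 oviduct remained. Fewer members and fewer of all genes then passed in each comparison with the oviduct. Oas3, Ifit3 and Zbp1 no longer passed in Pax8-BPR, at log2 fold changes of 6.81, 4.07 and 4.37. The choice to leave out these oviducts was made after the marker sums were seen.

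Tumours of the ovarian surface epithelium were then set against the equal-weight mean of the 3 oviduct-origin models. Members were lower in OSE-BPR in both kinds of tumour. Among GEMM tumours 16 of 37 passed, all lower, with a median log2 difference of -1.03 against 0.02 for all genes, where 26% of 20000 genes passed (11.1% lower, 14.9% higher). Among allografts 26 of 37 passed, all lower, with a median of -1.54 against 0.04, where 37.8% of genes passed (17.4% lower, 20.4% higher). The 2 comparisons use different libraries, although an allograft may derive from a GEMM tumour of the other set. The 16 members called in GEMM tumours were all called in allografts (100% of the first list and 61.5% of the second). The GEMM count was 6 of 37 without OSE-BPR replicate 3, where 13.5% of all genes passed.

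Of the OAS family 4 of 5 passed in each kind of tumour, where 26% of all genes passed in GEMM tumours and 37.8% in allografts. Oas2 was 1.34 to 2.95 CPM in OSE-BPR GEMM tumours and 0.63 to 3.93 in OSE-BPR allografts, but 70.5 and 25.3 in Ad-BPR GEMM, 17.1 to 106 in Pax8-BPR GEMM and 1.42 to 11 in Ovgp1-BPR GEMM tumours. Oas3 was 0 to 0.701 CPM in OSE-BPR allografts and at least 1.85 in every oviduct-origin allograft (log2 difference -5.20 ± 1.03, edgeR adjusted p = 0.00061). Zbp1 was 3.1, 1.94, 0.378, 1.61 and 1.61 CPM in OSE-BPR allografts and 9.47 to 187 in the others (-4.24 ± 0.91, edgeR adjusted p = 0.0011). Mx1 was 0.459, 0.809, 0.441, 0.773 and 0.0621 CPM against 2.33 to 22.5 (-4.02 ± 0.76, edgeR adjusted p = 0.00042). Ifit3 was 3.84, 2.7, 0.567, 3.22 and 0.434 CPM against 10.9 to 74.4 (-3.97 ± 0.70, edgeR adjusted p = 0.00021). The rule that named these 4 required that the allograft arms not overlap. In GEMM tumours the arms overlapped for all 4, since Ovgp1-BPR replicate 3 lay in the OSE-BPR range (0.34 CPM of Oas3, 0.963 of Zbp1, 0.623 of Mx1 and 3.4 of Ifit3), as did replicate 2 for Oas3 (0.764 CPM).

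Oasl1 was the only called member with no overlap in GEMM tumours, at 17.7 to 19.1 CPM in OSE-BPR against 25.4 to 130 (log2 difference -1.73 ± 0.39, edgeR adjusted p = 0.003). Thus Oasl1 was higher in OSE-BPR tumours than in the ovary and lower than in the oviduct-origin tumours. Irf7 was 13.7, 11.4 and 9.34 CPM in OSE-BPR GEMM tumours (-2.14 ± 0.67, edgeR adjusted p = 0.023) and 11.3, 6.68, 9, 15.8 and 2.17 in OSE-BPR allografts (-2.80 ± 0.56, edgeR adjusted p = 0.00066), against 21.4 to 93.2 in the oviduct-origin allografts. In GEMM tumours the arms overlapped, with Ovgp1-BPR at 5.16 to 73.7 CPM and Ad-BPR and Pax8-BPR at 20 to 147. The GEMM call ended without OSE-BPR replicate 2 or 3 or Ad-BPR replicate 1 (edgeR adjusted p up to 0.1). Tmem173 was lower in OSE-BPR than the mean of the 3 models in GEMM tumours (-1.03 ± 0.23, edgeR adjusted p = 0.0027) and allografts (-1.25 ± 0.19, edgeR adjusted p = 5e-05). Ovgp1-BPR overlapped OSE-BPR in GEMM tumours, at 33.4 to 40.4 against 19.2 to 47.5 CPM. The same held in allografts, at 39.3 to 51.3 against 22.4 to 41.5 CPM. Ad-BPR and Pax8-BPR tumours were at 77.2 to 117 CPM.

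Stat2 was lower in allografts (-1.04 ± 0.26, edgeR adjusted p = 0.0042) and did not pass in GEMM tumours (-0.83 ± 0.32, edgeR adjusted p = 0.058). Ifih1 behaved alike, with -1.45 ± 0.37 (edgeR adjusted p = 0.0047) in allografts and -0.52 ± 0.43 (edgeR adjusted p = 0.39) in GEMM tumours. Ifit1 passed in allografts (-1.77 ± 0.57, edgeR adjusted p = 0.018; 0.051 without OSE-BPR allograft replicate 3) and not in GEMM tumours (-0.54 ± 0.64, edgeR adjusted p = 0.57). Isg15 passed narrowly in allografts (-1.38 ± 0.54, edgeR adjusted p = 0.048), not passing without 9 of the 14 libraries taken singly (edgeR adjusted p up to 0.17), and did not pass in GEMM tumours (-0.72 ± 0.63, edgeR adjusted p = 0.43). Whether the origin difference itself differs between GEMM tumours and allografts was not tested for these genes singly.

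**Figure D4:**
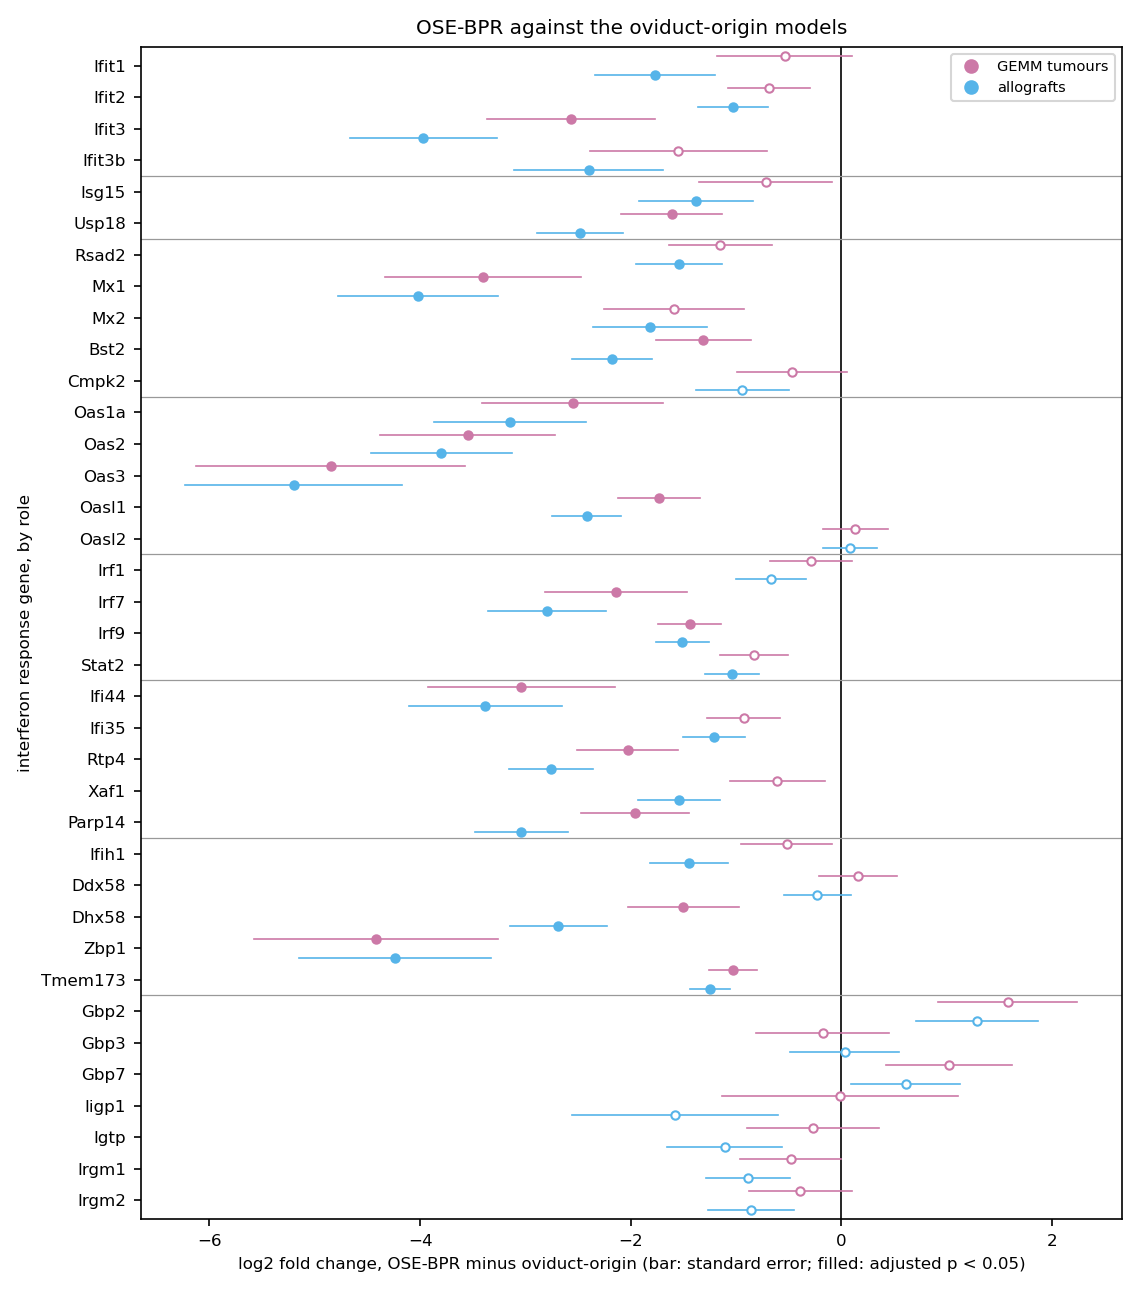
Log2 fold change (points, with bars of 1 standard error) of 37 interferon response genes in OSE-BPR against the mean of the 3 oviduct-origin models, in GEMM tumours and in allografts; filled points passed at adjusted p < 0.05. Filled points lie left of 0, from -1.03 to -5.20, and no GTPase point (bottom 7 rows) is filled.

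Not every member followed. None of the 7 GTPases passed in either kind of tumour (26% of all genes passed in GEMM tumours and 37.8% in allografts). They are too few genes to read against those shares. Their median log2 difference was -0.18 in GEMM tumours and -0.86 in allografts. Gbp2 was 101, 159 and 423 CPM in OSE-BPR GEMM tumours and 347, 181, 229, 107 and 86.8 in OSE-BPR allografts. Ad-BPR allografts were at 28.2, 42.1, 530 and 58.7 CPM, those of Pax8-BPR at 31.3 and 13.1 and those of Ovgp1-BPR at 163, 108 and 114. The fitted difference was upward, 1.58 ± 0.66 in GEMM tumours (edgeR adjusted p = 0.083; 0.047 without Pax8-BPR replicate 4) and 1.29 ± 0.58 in allografts (edgeR adjusted p = 0.085; 0.0016 without Ad-BPR replicate 3). Iigp1, another interferon gamma-type GTPase, differed by -0.01 ± 1.12 (edgeR adjusted p = 1) and -1.58 ± 0.98 (edgeR adjusted p = 0.21). Irf1 differed by -0.29 ± 0.39 (edgeR adjusted p = 0.61) and -0.67 ± 0.33 (edgeR adjusted p = 0.11). Oasl2 (129 to 253 CPM over 8 OSE-BPR libraries, 74.6 to 493 over the 18 other tumours) was the OAS gene that did not pass in either.

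Immune cell and fibroblast marker sums are given for the origin comparison as well. T and NK sums were 0.183 to 1.99 CPM over 8 OSE-BPR libraries and 0.819 to 43.8 over the other tumours, macrophage sums 132 to 507 against 225 to 3231, and fibroblast sums (5 genes) 224 to 1056 against 637 to 18311. Dendritic cell sums (7 genes) were 83.7 to 142 in OSE-BPR and 18.3 to 114 in the others, but most of their counts were of Zbtb46 and Itgax, and Xcr1, Clec9a and Ccr9 were under 0.1 CPM in OSE-BPR GEMM tumours. Their part in the members' levels was not tested.

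The OAS family and the GTPases ranked the models differently. Each library's median deviation over the 5 OAS genes was -2.16 to -0.81 in OSE-BPR tumours, but their GTPase medians were 0.16 to 0.42 except in allograft replicates 3 and 5 (-0.24 and -1.07). Ad-BPR tumours showed the reverse, with OAS medians of 0.57 to 2.17 and GTPase medians of -1.34 to -0.27 except in allograft replicate 3 (2.58). Pax8-BPR GEMM replicates 2 and 4 were high in both, with OAS medians of 2.43 and 2.68 and GTPase medians of 1.17 and 1.87. This is a description of the libraries and carries no test.

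**Figure D5:**
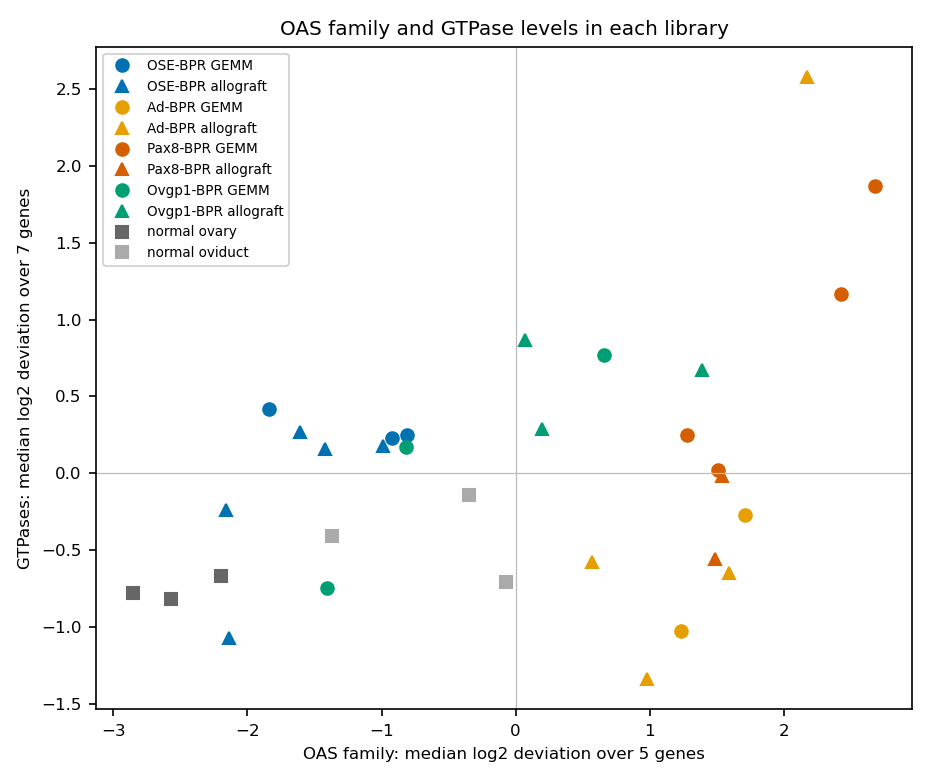
Each point is 1 library, placed by its median log2 deviation over the 5 OAS genes (horizontal) and over the 7 GTPases (vertical); deviations are from each gene's median over 32 libraries, circles are GEMM tumours, triangles allografts and squares normal tissue. OSE-BPR points lie left of 0 and mostly just above 0 on the vertical axis, Ad-BPR points lie right of 0 and mostly below it, and Ad-BPR allograft replicate 3 and Pax8-BPR GEMM replicates 2 and 4 form the top right.

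The Ovgp1-BPR model, with its own Trp53 allele, was compared with the mean of Ad-BPR and Pax8-BPR, the other oviduct-origin models of the same strain. Its Cre also differs from theirs, so Trp53 allele and Cre cannot be told apart. Fibroblast sums were 637 to 1543 CPM in Ovgp1-BPR tumours and 3563 to 18311 in the others. Macrophage sums were 225 to 1544 against 519 to 3231 CPM. The part of these cells was not tested. Few members differed. In GEMM tumours 6 of 37 passed (2 higher, 4 lower; median log2 difference -0.97; 22.7% of 20000 genes passed, 12.5% higher and 10.2% lower). In allografts 4 of 37 passed (2 higher, 2 lower; median -0.11; 22.3% of genes, 13.7% higher and 8.61% lower). Under edgeR both shares were below that of all genes (16.2% and 10.8%). For GEMM tumours the order turned under DESeq2 (14 members, 29.1% of genes), voom with quality weights (21, 38.7%) and without Ovgp1-BPR replicate 1 (15, 24.8%). All 4 of the allograft calls were among the 6 GEMM calls with the same sign (66.7% of the first list, 100% of the second). They were Ifit2 and Oasl2, higher in Ovgp1-BPR, and Tmem173 and Xaf1, lower.

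Tmem173 was 33.4 to 40.4 CPM in Ovgp1-BPR GEMM tumours and 39.3, 39.8 and 51.3 in Ovgp1-BPR allografts, and 77.2 to 117 in the 12 Ad-BPR and Pax8-BPR tumours, with no overlap. The log2 differences were -1.45 ± 0.24 (edgeR adjusted p = 0.00052) in GEMM tumours and -1.08 ± 0.24 (edgeR adjusted p = 0.0034) in allografts, past the threshold whichever single library was left out. Ifit2 was 54.7 to 60.8 CPM in Ovgp1-BPR GEMM tumours and 69.6, 86.3 and 47.5 in allografts, and 9.82 to 44.5 in the Ad-BPR and Pax8-BPR tumours. Its differences were 1.20 ± 0.39 (edgeR adjusted p = 0.033) and 1.89 ± 0.39 (edgeR adjusted p = 0.0023). The GEMM call ended without any 1 of the 3 Ovgp1-BPR or the 2 Ad-BPR tumours (edgeR adjusted p up to 0.11), and the allograft call held throughout.

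Oasl2 was 493, 408 and 340 CPM in Ovgp1-BPR allografts against 74.6 to 240 in Ad-BPR and Pax8-BPR allografts (log2 difference 1.85 ± 0.32, edgeR adjusted p = 0.00055). In the same allografts Oas2, at 9.8, 9.67 and 26.2 CPM, was not higher. In GEMM tumours Oas2 was 11, 5.29 and 1.42 CPM in Ovgp1-BPR against 17.1 to 106 in the others (-3.13 ± 0.82, edgeR adjusted p = 0.011). Parp14, an ADP-ribosyltransferase, was 63.3, 22.4 and 12.2 CPM against 95.9 to 211 (-2.01 ± 0.53, edgeR adjusted p = 0.011). Xaf1, which opposes the apoptosis inhibitor XIAP, was 39.1, 21 and 16.1 CPM against 53.8 to 191 (-1.88 ± 0.51, edgeR adjusted p = 0.013) and passed narrowly in allografts (-1.40 ± 0.49, edgeR adjusted p = 0.046). These 3 GEMM calls ended without Ovgp1-BPR replicate 2 or 3 (edgeR adjusted p up to 0.082), the count being 1 without either and 15 without replicate 1. The Xaf1 allograft call ended without any 1 of 5 libraries, Ad-BPR replicate 3, Ovgp1-BPR replicate 1 or 2 and both Pax8-BPR allografts (edgeR adjusted p up to 0.17). On length-scaled values (limma on log2(TPM + 1)) Xaf1 did not pass in either kind of tumour (limma adjusted p = 0.29 and 0.83).

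Irf7, Irf1 and Gbp2 did not pass between Ovgp1-BPR and the other oviduct models in either kind of tumour. Irf7 differed by -0.96 ± 0.65 in GEMM tumours (edgeR adjusted p = 0.29; 0.02 without Ovgp1-BPR replicate 1) and by 0.03 ± 0.62 in allografts (edgeR adjusted p = 0.99). Irf1 differed by -1.03 ± 0.43 and -1.04 ± 0.43 (edgeR adjusted p = 0.082 in both; 0.039 without Ovgp1-BPR GEMM replicate 1 and 0.023 without Ovgp1-BPR allograft replicate 3). Gbp2 differed by 1.08 ± 0.74 in allografts (edgeR adjusted p = 0.31; 0.012 without Ad-BPR replicate 3).

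Allografts and GEMM tumours of the same model were compared to see whether transfer moved the members. No member passed on average over the 4 models (0 of 37; 0% of 20000 genes passed) or in the test of whether the allograft difference varied with the model (0 of 37; 0% of genes). In edgeR no member reached an unadjusted p under 0.05 in the average comparison and 1 did in the test by model, while 1210 and 902 of all genes did. DESeq2 called 34 and 26 genes and 0 members. The members' log2 differences ran from -0.29 to 0.27 with standard errors of 0.13 to 0.67. Differences of the size of the standard errors, and also larger ones, could go unresolved after adjustment over 20000 genes. Isg15 differed by 0.08 ± 0.37, Irf7 by 0.14 ± 0.36 and Tmem173 by -0.08 ± 0.13. That average joins models whose fitted differences pointed in different directions. Members fitted higher in allografts numbered 37 of 37 in Ovgp1-BPR (median log2 difference 0.66, all genes 0.00) and 28 of 37 in Ad-BPR (0.23, all genes 0.01). They numbered only 3 of 37 in Pax8-BPR (-0.63, all genes -0.10) and 2 of 37 in OSE-BPR (-0.36, all genes -0.00). In each model 0 members and 0% of genes passed the threshold. The share of all genes fitted higher was not counted. Members of a library are not independent, and single libraries lay far from their groups. The median deviation was -1.31 in Ovgp1-BPR GEMM replicate 3 and 1.64 in Ad-BPR allograft replicate 3. Gbp2 averaged 37.6 CPM in Ad-BPR GEMM tumours and 165 in Ad-BPR allografts, which include replicate 3 at 530 CPM (2.13 ± 1.01, edgeR adjusted p = 1), and 122 and 22.2 CPM in Pax8-BPR (-2.46 ± 1.03, edgeR adjusted p = 0.27).

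Within most tumour groups the members spread more widely than the median gene. The median standard deviation of log2 levels was 1.00 for the members against 0.34 for all 20887 genes in Ovgp1-BPR GEMM tumours, where 16 of 37 members exceeded the 90th percentile of all genes (1.05). It was 0.74 against 0.33 in Ad-BPR allografts (14 of 37) and 0.75 against 0.44 in Pax8-BPR GEMM tumours (4 of 37). Pax8-BPR allografts, at 0.30 against 0.31, and Ovgp1-BPR allografts, at 0.40 against 0.34 with 1 of 37 above the 90th percentile, were close to all genes. In the ovaries it was 0.17 against 0.13. These are descriptions, since members share their libraries.

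Single libraries carried much of that spread. In Ad-BPR allografts Iigp1 was 3.49, 2.84, 188 and 4.33 CPM, Igtp 21.8, 28.1, 297 and 22.4, and Zbp1 19.1, 23.2, 187 and 15.7, with replicate 3 high each time. The T and NK sums of the same libraries were 4.12, 4.73, 24.3 and 3.16 CPM and the macrophage sums 1802, 3218, 1170 and 1654. In Pax8-BPR GEMM tumours Iigp1 was 12.2, 35.7, 13.3 and 122 CPM and the T and NK sums 7.85, 28.1, 19.8 and 43.8, replicate 4 being highest in both. Isg15 was highest in replicate 2 (166 CPM) instead. The marker levels are given beside the members, and their part was not tested.

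The interferons themselves were scarcely detected. Of 11 ligand genes listed beside the members, only Ifne, the epithelial interferon of the reproductive tract, reached the filter. Ifne was 1.3 to 3.85 CPM in the oviducts, at 0 in all ovaries and all OSE-BPR tumours, and 8.05 CPM in Pax8-BPR GEMM replicate 2. Ifnb1 stayed at or under 0.224 CPM, above 0 in 8 of 32 libraries, and Ifng at or under 0.914 CPM, highest in Pax8-BPR GEMM replicate 4. Ifna1 and Ifna4 had no counts in any library, and a count of 0 allows up to 3 counts, or 0.146 to 0.214 CPM at these depths (counting error only).

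Of 61 further pathway genes, listed by role, 51 were tested against normal tissue in the tumours. The pathway genes named below were picked after their values were seen. In Pax8-BPR GEMM tumours 34 passed (31 higher, 3 lower), or 66.7% against 32.2% of all genes. In Ad-BPR 15 passed (12 and 3), or 29.4% against 24.1%. In OSE-BPR 12 passed (9 and 3), 23.5% against 23.2%, and in Ovgp1-BPR 12 (9 and 3), 23.5% against 32.6%, so these shares were near or below that of all genes. The chemokine Cxcl10, which draws T cells, was 42.2 CPM on average in Pax8-BPR, 39.6 in Ovgp1-BPR and 8.78 in Ad-BPR GEMM tumours, and 0.186 in the oviducts (edgeR adjusted p = 2.3e-05, 3.2e-05 and 0.0013). Nlrc5, the activator of class I antigen presentation genes, was 135 CPM in Pax8-BPR against 5.64 (edgeR adjusted p = 0.0005), and its target Tap1 209 against 21.3 (edgeR adjusted p = 0.0012). The lower genes of Pax8-BPR were Mavs, Irf3 and Ticam1, which carry signals from the sensors to interferon genes.

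Between origins, 14 of 51 pathway genes passed in GEMM tumours (6 higher in OSE-BPR, 8 lower), 27.5% against 26% of all genes, and 27 of 51 in allografts (2 higher, 25 lower), 52.9% against 37.8%. Irf5, a factor downstream of Toll-like receptors, was higher in OSE-BPR than the mean of the oviduct-origin models in both. It was 129 against 56.8 CPM in GEMM tumours (log2 difference 1.75 ± 0.34, edgeR adjusted p = 0.001) and 114 against 60.6 in allografts (1.85 ± 0.30, edgeR adjusted p = 0.00011). It was also higher in Ovgp1-BPR than in Ad-BPR and Pax8-BPR, at 124 against 23 CPM in GEMM tumours (2.54 ± 0.39, edgeR adjusted p = 0.00025) and 151 against 15.1 in allografts (3.40 ± 0.40, edgeR adjusted p = 1.6e-05). The Ovgp1-BPR mean was thus near that of OSE-BPR in GEMM tumours and above it in allografts. Myd88, the adaptor of most Toll-like receptors, was lower in OSE-BPR GEMM tumours (15.6 against 48 CPM, edgeR adjusted p = 0.0017) and allografts (16.4 against 47.6 CPM, edgeR adjusted p = 0.00023). The interferon gamma receptor chain Ifngr1 was 42.4 CPM in OSE-BPR allografts against 132 (-1.51 ± 0.29, edgeR adjusted p = 0.00053). In Ovgp1-BPR against Ad-BPR and Pax8-BPR, Ifngr1 was 64.1 against 158 CPM in GEMM tumours (-1.31 ± 0.37, edgeR adjusted p = 0.017) and 65.3 against 165 in allografts (-1.34 ± 0.37, edgeR adjusted p = 0.014). Adar, which edits double-stranded RNA and so limits its sensing, was lower in Ovgp1-BPR in both kinds of tumour (28.6 against 123 CPM, edgeR adjusted p = 0.002, and 48.1 against 113 CPM, edgeR adjusted p = 0.032). In normal tissue 27 of 49 passed (14 higher in the oviduct, 13 lower), 55.1% against 53% of all genes.

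Cgas, which makes the messenger that activates STING, rose in each GEMM model. It was 4.65, 4.92 and 7.18 CPM in the ovaries and 8.91, 18.7 and 30.3 in OSE-BPR GEMM tumours (log2 fold change 1.79 ± 0.57, edgeR adjusted p = 0.025). In the oviducts it was 3.54, 2.39 and 2.93 CPM, lower than in the ovary (-0.83 ± 0.26, edgeR adjusted p = 0.032). Against these, the log2 fold changes were 2.76 ± 0.63 in Ad-BPR (edgeR adjusted p = 0.0029), 2.58 ± 0.57 in Pax8-BPR (edgeR adjusted p = 0.0013) and 2.36 ± 0.59 in Ovgp1-BPR (edgeR adjusted p = 0.0037). Between OSE-BPR and oviduct-origin tumours it differed by 0.14 ± 0.48 in GEMM tumours (edgeR adjusted p = 0.87) and -0.22 ± 0.41 in allografts (edgeR adjusted p = 0.72). Tmem173, the next step of the same pathway, was lower in OSE-BPR than the mean of the oviduct-origin models in both, but overlapped Ovgp1-BPR, as given above.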

How the data were processed

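Total RNA of 26 tumours and 6 normal tissues gave 32 libraries. The authors deposited RSEM expected counts and TPM values for 55450 genes. The submitters' processing notes name bcl2fastq, cutadapt 1.18, STAR 2.7.0f, RSEM 1.3.1 and Picard, with builds mm10 and GRCm38. Whether counting used strand: not given in the sources used here. Gene IDs matched GENCODE M21 for all 55450 genes. Columns not mapped to a sample numbered 0.

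Counts, made whole by rounding, went into edgeR 4.0.16 and its quasi-likelihood test (R 4.3.3, TMM factors, filterByExpr with minimum count 10 and minimum total 15). The fits used the 6 normal libraries (17334 genes), the 26 tumours (20000) or all 32 (20887). A gene passed at a Benjamini-Hochberg adjusted p < 0.05 over all tested genes, and the standard error is the log2 fold change divided by the square root of F. Levels in CPM come from the fit of 32 libraries. The code was tested on simulated data. The lowest chi-square per degree of freedom among 39 pairs of libraries within groups was 10.9, so none was a duplicate. Ovary and oviduct replicates pair by the animal number in the labels. Deviations from the tissue mean correlated at -0.11, -0.064 and 0.079 within the 3 animals.

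Statistics are given for up to 4 called members per direction with the largest change, at least 5 CPM and no overlap of the arms, and for Isg15, Ifit1, Irf7, Stat2, Irf1, Gbp2, Iigp1, Ifih1, Cgas and Tmem173 as far as they bear on a comparison. The members, lists and comparisons were chosen with earlier results of these data known. Alternatives were DESeq2 1.42.0, RLE factors, no filter, limma 3.58.1 on log2(TPM + 1) and log2(TPM + 0.1), voom with quality weights, only the groups compared, an animal block, and leaving out each library.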

Additional observations from a re-analysis of the deposited data

Results flagged for a closer look

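In the 3 groups of 4 or 5 libraries, 111 pairs of member and group were searched for a library far from the others, and 20 had one by a threshold at which chance alone picks about 1 in 20 groups. Members of a library are not independent, and 15 of the 20 were the same library, Ad-BPR allograft replicate 3, at the high end. Its CPM, with the nearest of the other 3 allografts in parentheses, was 530 (58.7) for Gbp2, 146 (19.2) for Gbp3, 121 (14.3) for Gbp7, 188 (4.33) for Iigp1, 297 (28.1) for Igtp, 131 (54.3) for Irgm1 and 209 (51.8) for Irgm2, so that all 7 GTPases were among the 15. It was 41.6 (11.5) for Ifit1, 74.4 (18) for Ifit3, 36.2 (14.5) for Usp18 and 98.2 (64.9) for Oasl1. It was 54.3 (8.1) for Ifi44, 100 (43.9) for Ddx58, 187 (23.2) for Zbp1 and 205 (70.6) for Xaf1. The summed T and NK markers of this library were 24.3 CPM against 3.16 to 4.73 in the other 3. Its other immune sums were mostly the lowest of the group. Macrophage sums were 1170 CPM against 1654 to 3218, neutrophil sums 22.9 against 24.6 to 57.2, and B and plasma cell sums 3.47 against 5.91 to 40.4. The dendritic cell sum, 54.2 CPM, lay within the range of 36.4 to 82. The part of these cells was not tested.

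The other 5 lay in different libraries. Irgm2 was 125 CPM in Pax8-BPR GEMM replicate 4, with the next at 47.5, and Rsad2 was 39.3 CPM in Pax8-BPR GEMM replicate 3, below the next lowest at 70.5. In OSE-BPR allografts, Oas1a was 10.2 CPM in replicate 4 (next 2.81) and Dhx58, a regulator of RNA sensing, was 4.42 CPM in replicate 1 (next 2.64). Ifih1 was 2.17 CPM in OSE-BPR allograft replicate 5, with the next lowest at 11.8, and the same library held the lowest tumour level of 16 members.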

How the results depend on the processing

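Across the 11 comparisons no named member reversed its direction past a threshold. Of 2349 repeats of 132 named results under another setting, 2205 kept their side of the threshold, 105 lost it and 39 gained it. With the animal as a replicate block, 22 members passed between oviduct and ovary (46% of all genes) in place of 25 (53%), all 22 among the 25. With all 32 libraries in that fit, 6 passed (12.5% of all genes). Restricted to the groups compared, 17 passed in OSE-BPR against ovary (33.3% of all genes) and 24 in Ad-BPR against oviduct (47.2%). Without oviduct replicates 1 and 3, 2 passed in Ad-BPR, 7 in Pax8-BPR and 4 in Ovgp1-BPR against oviduct, with 1 oviduct left. For Ovgp1-BPR against Ad-BPR and Pax8-BPR, DESeq2 gave 14 in GEMM tumours and 7 in allografts (29.1% and 28.1% of all genes), and voom with quality weights 21 and 14 (38.7% and 38.8%). The cause of these changes was not tested.

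Leaving out each library in turn gave 18 to 25 members for oviduct against ovary (41.6% to 50.8% of all genes) and 8 to 11 for OSE-BPR against ovary (15% to 23.7%). Against oviduct it gave 24 to 27 for Pax8-BPR (23.7% to 34.7%) and 6 to 13 for Ovgp1-BPR (22.1% to 33%). For Ad-BPR it gave 3 to 6 when an oviduct was left out (17.4% to 17.8%), and leaving out either tumour left 1 Ad-BPR GEMM library. For OSE-BPR against oviduct origin the counts were 6 to 20 in GEMM tumours and 23 to 27 in allografts. In allografts 32.1% of all genes passed at the lowest count and 36.9% at the highest. The GEMM count was 6 without OSE-BPR replicate 3 (13.5% of all genes) and 20 without Ovgp1-BPR replicate 3 (24.7%). For Ovgp1-BPR against the other oviduct models, leaving out single libraries gave 1 to 15 in GEMM tumours (9.86% to 24.8% of all genes) and 3 to 6 in allografts (10.4% to 26.7%). For allografts against GEMM tumours the count was 0 throughout.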
